A study of Mus musculus with 15 samples.

Results

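Adipokines are proteins that fat tissue releases into the blood, and the transcripts of 8 adipokine genes were followed here: Lep, Adipoq, Retn, Cfd, Nampt, Rbp4, Nrg4 and Apln. They were chosen by name, and each had 1 locus of its own among the 23589 loci with a gene name. RNA-Seq was carried out on 15 libraries, from male C57BL/6 mice on 3 diets, covering the hippocampus, the hypothalamus, the colon, the liver and epididymal fat. AL mice were fed ad libitum and were 5 months of age. DR mice were under a 40% dietary restriction for 1 month from 4 months of age and were also 5 months of age. DR-AL mice had the same month of restriction, returned to AL feeding for 2 months and were 7 months of age, so age and diet history cannot be told apart in this group. The mice carried no transgene according to the labels, and RNA of 5 mice was pooled into 1 library per tissue and diet. There was therefore no replicate of any diet within a tissue, the intervals below cover counting error only, and no p-value for a diet within a tissue is given.

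Fat cells work as endocrine cells. Leptin and adiponectin report the state of the fat stores to the brain, liver and muscle, and in the mouse resistin opposes the action of insulin. Adipsin, the product of Cfd, is a protease of the alternative complement pathway, and Nampt makes a precursor of NAD in most cells. Rbp4 carries retinol in blood and comes mainly from hepatocytes, Nrg4 is a growth factor of the EGF family that binds ErbB receptors, and apelin (Apln) is a peptide ligand of the receptor Aplnr.

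All 8 genes are protein coding in the GENCODE M21 annotation of GRCm38. Lep (XLOC_024170) lies at chr6:29060220-29073877 on the plus strand, Adipoq (XLOC_011271) at chr16:23146536-23158028 on the plus strand, Retn (XLOC_028726) at chr8:3655770-3660110 on the plus strand, and Cfd (XLOC_002356) at chr10:79890853-79892655 on the plus strand. Nampt (XLOC_006026) lies at chr12:32819545-32853349 on the plus strand, Rbp4 (XLOC_015527) at chr19:38116629-38125281 on the minus strand, Nrg4 (XLOC_031753) at chr9:55220222-55326844 on the minus strand, and Apln (XLOC_033052) at chrX:48025146-48034853 on the minus strand. Counts fell on whole loci, so isoforms were not told apart.

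The 250 bases before the RefSeq start sites (GRCm38.p6) are shown for the 4 genes with the widest gap between fat and the other tissues, Lep, Adipoq, Retn and Cfd, and for the start of Rbp4 that carries a TATA box. Capitals mark matches, on either strand, to the palindrome TTGCGCAA, which C/EBP factors bind, and to the TATA box TATAAA. Lep covers chr6:29059971-29060220, Adipoq chr16:23146286-23146535, Retn chr8:3655520-3655769, Cfd chr10:79890603-79890852 and Rbp4 chr19:38124812-38125061, each written 5′ to 3′ on the strand of its gene.
Lep: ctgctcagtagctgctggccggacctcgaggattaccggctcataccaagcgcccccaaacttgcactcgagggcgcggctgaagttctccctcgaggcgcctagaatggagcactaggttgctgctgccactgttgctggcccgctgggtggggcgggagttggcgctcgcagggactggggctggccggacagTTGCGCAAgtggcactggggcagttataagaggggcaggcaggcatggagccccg
Adipoq: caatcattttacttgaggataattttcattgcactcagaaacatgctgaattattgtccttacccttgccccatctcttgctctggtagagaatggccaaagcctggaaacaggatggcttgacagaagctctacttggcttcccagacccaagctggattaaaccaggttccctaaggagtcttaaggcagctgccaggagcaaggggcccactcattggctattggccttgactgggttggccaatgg
Retn: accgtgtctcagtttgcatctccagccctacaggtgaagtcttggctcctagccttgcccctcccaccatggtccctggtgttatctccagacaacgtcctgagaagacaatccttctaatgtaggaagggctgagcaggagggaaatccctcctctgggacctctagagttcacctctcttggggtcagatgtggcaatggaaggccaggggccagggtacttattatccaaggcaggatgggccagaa
Cfd: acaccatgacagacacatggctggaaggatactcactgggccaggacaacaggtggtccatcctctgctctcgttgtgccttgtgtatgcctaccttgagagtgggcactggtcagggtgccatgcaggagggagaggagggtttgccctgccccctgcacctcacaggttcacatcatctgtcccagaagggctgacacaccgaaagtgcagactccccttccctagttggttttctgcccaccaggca
Rbp4: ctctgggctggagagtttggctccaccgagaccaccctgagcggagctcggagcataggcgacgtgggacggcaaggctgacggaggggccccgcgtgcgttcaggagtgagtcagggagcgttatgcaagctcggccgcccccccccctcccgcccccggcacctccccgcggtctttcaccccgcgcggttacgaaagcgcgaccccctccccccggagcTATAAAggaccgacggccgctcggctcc
The Lep sequence holds the palindrome, starting 55 bases before the start site, and 0.164% of 32851 promoters in the table hold it. The Rbp4 start shown has a TATA box starting 28 bases before it, a motif found in 12.4% of promoters. These letters were not found in the windows of Adipoq, Retn, Cfd, Nampt, Nrg4, Apln or the other Rbp4 start, and no binding was measured in these samples. Cebpa, which encodes a C/EBP factor of fat cells, had 15894 counts in AL fat, 13635 in DR fat and 7729 in DR-AL fat.

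Reads on named loci numbered between 21767088 and 40500130 per library. The fat libraries differed in content. The summed level of 12 adipocyte genes was 48424, 38003 and 29709 CPM (counts scaled to a common total on named loci) for AL, DR and DR-AL. The summed level of 20 hepatocyte genes was 9811 CPM in AL fat against 107 in DR fat and 36.4 in DR-AL fat, and 19 of the 20 had counts, Alb being listed at 0 in all fat libraries. The other tissues carried their own markers, with hepatocyte genes at 69618 to 80499 CPM in liver, 4 colon epithelium genes at 7928 to 8602 CPM in colon, and 3 neuron genes at 2247 to 5289 CPM in the brain libraries. In fat, the summed level of 9 genes of testis germ cells was 3.66, 611 and 3136 CPM in the AL, DR and DR-AL fat libraries, and that of 8 genes of the epididymis, which adjoins this fat depot, was 908, 3247 and 5088 CPM. Crisp1 (846, 2802 and 4584 CPM) carried most of the latter sum, while 6 of the 8 epididymis genes were lower in DR-AL than in DR fat, among them Lcn8 (0.0763, 43.9 and 0.183 CPM). Because such RNA moves the library total, counts within a tissue were divided by DESeq size factors (scaled counts), and the size factors were 0.919, 0.912 and 1.21 for AL, DR and DR-AL fat.

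**Figure D1:**
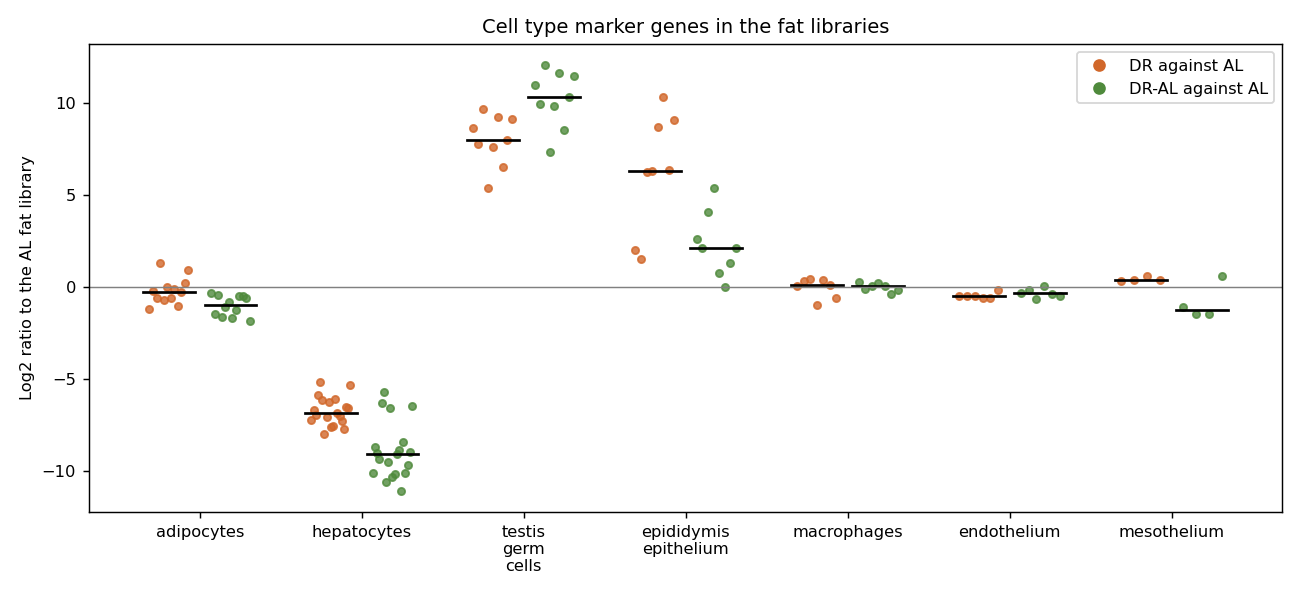
Log2 ratios to the AL fat library for marker genes of 7 cell types, 1 point per gene, with DR in orange, DR-AL in green and black bars at the medians. Adipocyte medians are -0.25 and -0.95, hepatocyte medians -6.82 and -9.08, and germ cell medians 7.96 and 10.32.

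In fat, per length of transcript, Cfd was the most abundant of the 8 genes in each library, at 7484, 4371 and 2027 FPKM for AL, DR and DR-AL. In AL fat Adipoq followed at 2352 FPKM, Retn at 2219 and Rbp4 at 955, while Lep stood at 79.0, Nampt at 27.4, Nrg4 at 25.6 and Apln at 2.97. By read count Cfd ranked between 4 and 5 among all named loci of the fat libraries and Adipoq between 11 and 20. FPKM mainly serves to rank genes within a library, since between the fat libraries it shifts by -0.54 (DR) and -1.28 (DR-AL) on the log2 scale against the size factors. Where FPKM is set between libraries below, it carries this shift.

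After restriction, 3 of the 8 genes were lower in fat than in AL, namely Adipoq, Rbp4 and Apln, and none was higher. This count depends on the treatment of the libraries: with counts expected from liver RNA removed, 2 were past the fold as lower and 2 (Nampt and Rbp4) as higher, and with library totals or adipocyte genes as the scale 3 were lower and 2 (Retn and Nampt) higher. A gene was called where the Z test on square roots of scaled counts, taken from the methods of the study, gave a Benjamini-Hochberg adjusted p under 0.05 and the scaled count was at least 25% higher in one library than in the other. The test compares 2 libraries and not the diets. Under it 42.8% of all tested loci were called in either direction in DR fat and 16.6% were called lower, so 3 of 8 is a count to read against a high background. After the return to AL feeding, 7 of 8 were lower than in AL and none was higher, where 58.1% of loci were called and 24.7% were called lower. Scaled by library totals 4 were lower and none higher, and scaled by adipocyte genes 2 (Retn and Rbp4) were lower and 4 (Cfd, Nampt, Nrg4 and Apln) were higher. Between DR-AL and DR fat 6 genes were lower and 1, Apln, was higher, against 50.2% of loci called and 18.6% called lower, and scaled by adipocyte genes 2 were lower and 3 higher. The median log2 ratio of the 8 genes was -0.13 for DR and -0.75 for DR-AL against AL, and -0.69 for DR-AL against DR, where the medians over 17306 loci with a mean of at least 10 counts were 0.05, 0.00 and 0.09. With a fold of at least 2, 1 gene was lower in DR (Apln) and 3 were lower in DR-AL (Adipoq, Retn and Rbp4), where 5.60% and 7.24% of loci passed; between DR-AL and DR, 2 passed (Retn and Rbp4) against 5.46%. Fewer fat cells in the sample and less RNA of a gene per fat cell cannot be told apart in these bulk libraries.

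**Figure D2:**
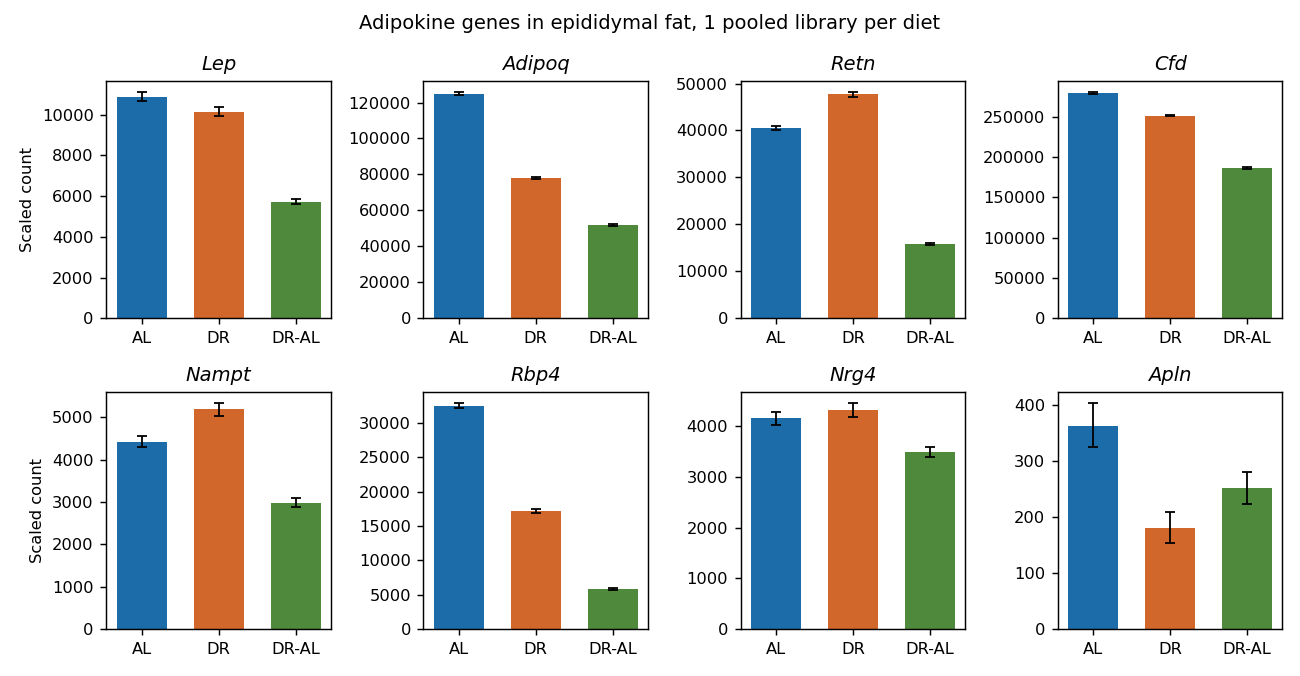
Scaled counts of the 8 genes in the AL, DR and DR-AL fat libraries, 1 library per bar, with exact 95% Poisson intervals that cover counting error only. Every gene but Apln is lowest in DR-AL, and Lep, Adipoq, Cfd and Rbp4 step down from AL to DR to DR-AL, although the Rbp4 step to DR turns when liver counts are removed.

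Of the hormones that act on energy balance, Lep had 10006 counts in AL fat, 9256 in DR and 6949 in DR-AL. Scaled, this was 10883, 10152 and 5733. The AL and DR libraries lay close together and the DR-AL library was well below both. In DR fat, Lep was at 93.3% of AL (95% interval 90.7 to 96.0%), too small a difference for a call, and in DR-AL it was at 52.7% (51.1 to 54.3%) and was called lower.

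Adipoq had 114888, 71234 and 62999 counts in AL, DR and DR-AL fat. It was called lower in both, at 62.5% of AL in DR (61.9 to 63.1%) and 41.6% in DR-AL (41.2 to 42.0%). The DR-AL library was also lower than the DR library, at a log2 ratio of -0.59. By scaled counts the 3 libraries therefore lay in 1 descending order, with DR-AL the farthest from AL. Scaled by adipocyte genes, DR was the farthest, with log2 ratios to AL of -0.49 in DR and -0.27 in DR-AL.

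Retn had 37323 counts in AL fat, 43474 in DR and 19222 in DR-AL. The DR library was the highest of the 3, at 117% of AL (116 to 119%), which did not reach the fold for a call. In DR-AL fat Retn was at 39.1% of AL (38.4 to 39.8%) and at 33.3% of DR (32.7 to 33.8%), the lowest ratio to DR among the 8 genes. Among the resistin-like genes, Retnla (5963, 4193 and 3883 counts) was called lower under both diets, with log2 ratios of -0.50 and -1.02, while Retnlb and Retnlg had at most 4 counts in any fat library.

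Cfd gave 256450, 229078 and 225824 counts. Its scaled counts were 278938, 251250 and 186318, in descending order. DR fat was at 90.1% of AL (89.6 to 90.6%) and was not called, and DR-AL fat was at 66.8% (66.4 to 67.2%) and was called lower. Of its partners in the alternative pathway, C3 was called lower, with log2 ratios of -0.69 (DR) and -2.47 (DR-AL), but liver RNA, as estimated for Rbp4 below, would give 42.6% of its AL fat counts, and without them the ratios are 0.10 and -1.68, so the DR call is lost. The locus of Cfb, the substrate of adipsin, is shared with C2 and was called lower (-1.27 and -1.41, or -0.66 and -0.80 without the 34.6% expected from liver).

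Nampt, the enzyme of NAD salvage, had 4071, 4732 and 3618 counts. The DR library was at 117% of AL (112 to 122%), not called, and the DR-AL library at 67.4% (64.4 to 70.5%), called lower. Of 9 other genes of NAD metabolism, 1 was higher and 4 were lower in DR fat, and 5 were lower and none higher in DR-AL fat. With liver counts removed, the numbers past the fold were the same in both diets, though not all of the lower genes were. Of all loci tested in fat, 42.8% and 58.1% were called in either direction, and 16.6% and 24.7% were called lower. Nnmt, which methylates nicotinamide, had 3616, 2137 and 955 counts and log2 ratios of -0.75 and -2.32. Without the 18.4% of its AL fat counts expected from liver RNA, the Nnmt ratios are -0.46 and -2.03. Nmnat3, a mitochondrial enzyme that forms NAD, was the one that was higher in DR (447 and 714 counts, log2 ratio 0.69). Qprt had the lowest ratios (625, 31 and 31 counts, -4.30 and -4.71). Of its AL fat counts 80.1% are expected from liver RNA, without which the ratios are -2.20 and -2.42.

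Nrg4 had 3823, 3941 and 4235 counts. Its scaled counts were 4158, 4322 and 3494, and it was the only member called in none of the 3 comparisons. Its level was 104% of AL in DR (99.4 to 109%) and 84.0% in DR-AL (80.4 to 87.8%). Apln was the least abundant, with 334, 164 and 305 counts. It was lowest in DR fat, at 49.5% of AL (40.8 to 59.9%), and stood at 69.3% (59.1 to 81.1%) in DR-AL fat. Apln was the only 1 of the 8 genes called higher in DR-AL than in DR, by 1.40-fold (1.15 to 1.70).

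Rbp4, the carrier of retinol, had the lowest ratio of DR-AL to AL among the 8 as counted, though not once liver counts were removed (-1.06, against -1.36 for Retn and -1.27 for Adipoq). It had 29920 counts in AL fat, 15684 in DR and 7052 in DR-AL. Each library was lower than the one before, and DR fat was at 52.9% of AL (51.8 to 53.9%) and DR-AL fat at 17.9% (17.4 to 18.3%). Rbp4 is also the gene whose value in fat depended most on liver RNA. In liver it had 131332, 112185 and 115256 counts, and the AL fat library held hepatocyte genes at a median of 14.3% of their count in AL liver (quartiles 12.8 and 17.8%, from 8.65% for Apoa2 to 31.6% for Cps1, over 19 genes). The same ratio was 0.132% in DR and 0.0301% in DR-AL.

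At the median ratio, 18824 of the Rbp4 counts in AL fat are expected from liver RNA, or 62.9% of them (56.1 to 78.2% at the quartiles). This leaves 11096 counts in AL fat, 15536 in DR and 7017 in DR-AL. With the size factors unchanged, the log2 ratio of DR to AL then becomes 0.50 instead of -0.92, so that its direction turns. At the quartiles of the ratio it becomes 0.26 or 1.26. Equal levels in DR and AL fat are reached at a ratio of 10.9%, which lies within the range of the 19 genes. For DR-AL the log2 ratio becomes -1.06 instead of -2.48, and -0.31 at the upper quartile, where it is no longer called. Equal levels in DR-AL and AL fat are reached at a ratio of 18.7%, also within the range of the 19 genes. The comparison of DR-AL with DR, in which liver RNA was low in both, stayed at -1.56. Ttr, which binds Rbp4 in blood and is a liver gene too, had 12348, 247 and 20 counts in the 3 fat libraries. At the median ratio, 20916, 312 and 34.2 counts of Ttr are expected from liver RNA, more than were found. The median ratio is therefore too high for Ttr, and whether it is too high for Rbp4 was not tested.

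For the other 7 genes fewer counts are expected from liver RNA. The expected share of the AL fat counts was 9.72% for Nampt, 1.12% for Nrg4, 0.0429% for Apln, 0.00263% for Cfd, and smaller for Lep, Adipoq and Retn. Without these counts, and with the size factors unchanged, the log2 ratio of Nampt in DR was 0.38, past the fold for a call. The other 6 kept their side of it. The lower levels of Adipoq in both diets and of Lep, Retn and Cfd in DR-AL are therefore as large without the liver counts.

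**Figure D3:**
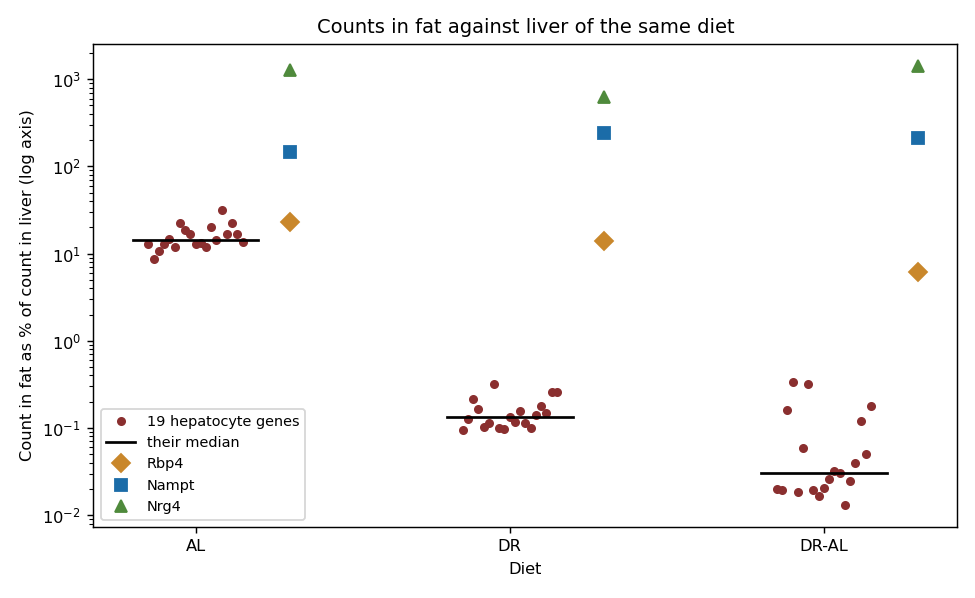
Count in fat as a percent of the count in liver of the same diet, on a log axis, for 19 hepatocyte genes (brown points, bars at their medians of 14.3%, 0.132% and 0.0301%), Rbp4, Nampt and Nrg4. Rbp4 (22.8%, 14.0% and 6.12%) lies among the hepatocyte genes in AL and far above them in DR and DR-AL, while Nampt and Nrg4 lie above them in every diet.

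The adipocyte genes were mostly lower in DR-AL fat, as were the 8 genes, and were called in both directions in DR fat. Of 12 adipocyte genes, 5 were lower and 2 higher in DR fat, where 16.6% of all loci were lower and 42.8% were called in either direction. In DR-AL fat 11 were lower and none higher, where 24.7% of all loci were lower and 58.1% were called. The medians were -0.25 (DR) and -0.95 (DR-AL). Plin1, which coats lipid droplets, had 48038, 44583 and 26349 counts (log2 ratios -0.10 and -1.27), and Lpl, lipoprotein lipase, had ratios of -0.62 and -1.69. The highest in DR were Slc2a4, the insulin-dependent glucose transporter (3881 and 7316 counts, 0.93), and Dgat2, which makes triglyceride (13603 and 33678 counts, 1.32), and both were lower than AL in DR-AL fat (-1.86 and -1.60). Against the geometric mean of these 12 genes, the DR-AL ratios of Lep (0.07), Cfd (0.42), Nampt (0.43), Nrg4 (0.75) and Apln (0.47) turned positive, whereas Adipoq (-0.27), Retn (-0.36) and Rbp4 (-1.48) stayed below AL. The Rbp4 value still holds its liver counts. With those removed, its DR-AL ratio was -1.06 before this scaling, about as large as the lift that the scaling gives. This scale lifts every DR ratio by 0.19 and every DR-AL ratio by 1.00. The library total lifts them by 0.19 and 0.34, and size factors from 9818 broadly used loci by 0.07 and 0.14. Of the 8 genes, Adipoq, Rbp4 and Apln were below AL in DR fat under all these scalings, and Adipoq, Retn and Rbp4 in DR-AL fat. None of these scalings removes the liver counts, and their removal turned Rbp4 in DR fat.

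**Figure D4:**
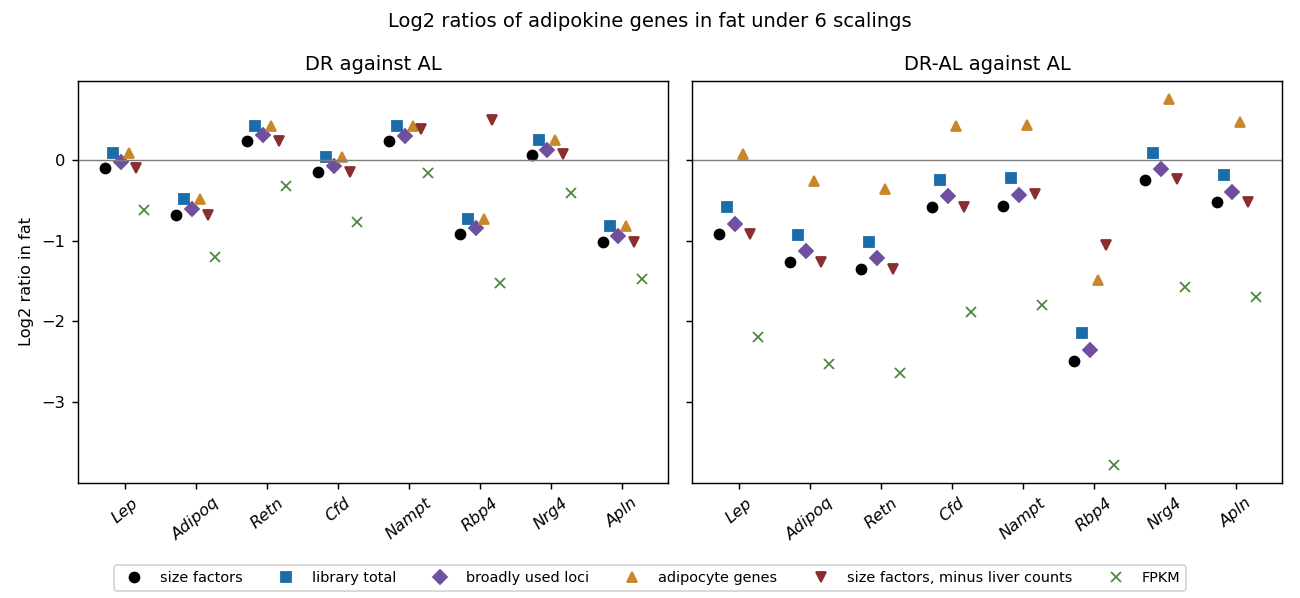
Log2 ratios of the 8 genes to AL fat, DR on the left and DR-AL on the right, under 6 ways to scale the libraries. Scaling by adipocyte genes raises all DR-AL ratios by 1.00, FPKM lowers them, and Rbp4 in DR turns from -0.92 to 0.50 when counts expected from liver RNA are removed.

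Genes of other cell types were called as well, where 42.8% (DR) and 58.1% (DR-AL) of all loci were called in either direction. The shares called lower were 16.6% and 24.7%. Of 7 macrophage genes 3 were higher and 2 lower in DR fat, and 1 was lower in DR-AL fat. Of 6 endothelial genes 5 were lower in DR and 3 in DR-AL, and of 4 mesothelial genes 3 were higher in DR and 3 lower in DR-AL. All 9 germ cell genes were higher in both diets, and 8 and 5 of 8 epididymis genes were higher in DR and DR-AL. The medians for mesothelium were 0.38 and -1.27. The part of these cells in the levels of the 8 genes was not tested.

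Of 14 receptors and partners of the 8 genes tested in fat, 9 were lower and 1 was higher in DR, where 16.6% of loci were lower, and 8 were lower and 2 higher in DR-AL, where 24.7% were lower. With liver counts removed, 6 were past the fold as lower and 3 as higher in DR, and 6 and 4 in DR-AL. The highest expected liver shares of AL fat counts were those of Ttr (169%), C3, Erbb3 and the Cfb locus, each 34.6% or more. For Ttr the expected counts exceed those found, and its remaining counts were set to 0. Lepr, the leptin receptor, had 343, 140 and 160 counts (log2 ratios -1.28 and -1.50). Of the adiponectin receptors, Adipor2 (28545, 18191 and 23814 counts) was lower in both diets (-0.64 and -0.66), and Adipor1 was called lower in DR-AL (-0.34). Without the 8.10% of its AL fat counts expected from liver RNA, the Adipor1 ratio in DR-AL is -0.22, too small for a call. Aplnr, the apelin receptor, was lower in both (-0.80 and -1.60). Erbb3, which pairs with ErbB receptors that bind Nrg4, was called lower in DR (-0.93) and stood at -0.01 in DR-AL, but 39.4% of its AL fat counts are expected from liver RNA, and without them the ratios are -0.21, too small for a call, and 0.71. Stra6, a receptor that takes up retinol from Rbp4, was higher in both, on 14, 31 and 65 counts.

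Of 17 other secreted factors of fat with counts, 11 were lower and 1 was higher in DR, and 10 were lower and 3 higher in DR-AL. Over all loci, 16.6% and 24.7% were called lower, and 42.8% and 58.1% in either direction. With liver counts removed, 12 were past the fold as lower and 2 as higher in DR, and 8 and 4 in DR-AL. Sfrp5, a Wnt inhibitor, fell from 1272 to 277 counts (log2 ratio -2.19) and was at -0.03 in DR-AL. Angptl4, an inhibitor of lipoprotein lipase, fell from 15885 to 4425 counts (-1.83) and was at -0.44 in DR-AL. Vegfa (-0.69 and -0.79) and Igf1 (-1.04 and -1.39) were lower in both, Igf1 by less without its liver counts (-0.51 and -0.85). The locus of Lcn2, a lipocalin that binds siderophores, is shared with 1110008P14Rik. It was the one that was higher in DR (939 and 3487 counts, 1.90) and was also higher in DR-AL (2.02). Of 8 epididymis genes, 8 and 5 were called higher in the same DR and DR-AL fat libraries. The part of epididymis and testis RNA in the Lcn2 counts was not tested. The lowest ratios were those of the locus of Serpina12 (vaspin) and Serpina9, with 156, 8 and 8 counts, where 84.2% of the AL counts are expected from liver RNA.

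Across tissues, Lep, Adipoq, Retn, Cfd, Nampt and Nrg4 had their highest mean CPM in fat. For Nampt this depends on the scale, its FPKM being higher in liver (28.7 to 51.1) than in fat (7.82 to 27.4). The fat range carries the shift of FPKM given above, and in AL alone Nampt stood at 51.1 in liver and 27.4 in fat. Mean CPM over the 3 diets was 347 ± 81.4 for Lep, 3268 ± 1048 for Adipoq, 1344 ± 605 for Retn and 9357 ± 963 for Cfd (SD over 3 diets, n = 3 libraries). In the next tissue, the colon, these 4 genes were at 0.143, 1.96, 0.590 and 5.73 CPM. For all 4 the fat libraries did not overlap with those of any other tissue, whereas the levels in colon and the tissue after it overlapped. The share of all loci without overlap between tissues was not computed, so this and the tissue orders below only describe the levels. Lep had 0 counts in 6 of the 12 libraries outside fat, and 0 counts allow up to 0.122 CPM there.

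Nrg4 was at 158 ± 13.6 CPM in fat and 17.8 ± 9.81 in liver, and its levels in fat, liver, hypothalamus and hippocampus formed an order without overlap. Nampt was at 165 ± 38.4 CPM in fat and between 81.7 and 92.5 in the other tissues, which overlapped among themselves. Rbp4 was highest in liver, at 5056 ± 314 CPM, against 695 ± 442 in fat. Apln was highest in hypothalamus at 18.6 CPM (16.2 to 20.1 over the 3 diets), then in hippocampus at 14.9 (13.5 to 15.9) and in fat at 10.4 (7.18 to 12.7), and these 3 ranges did not overlap.

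**Figure D5:**
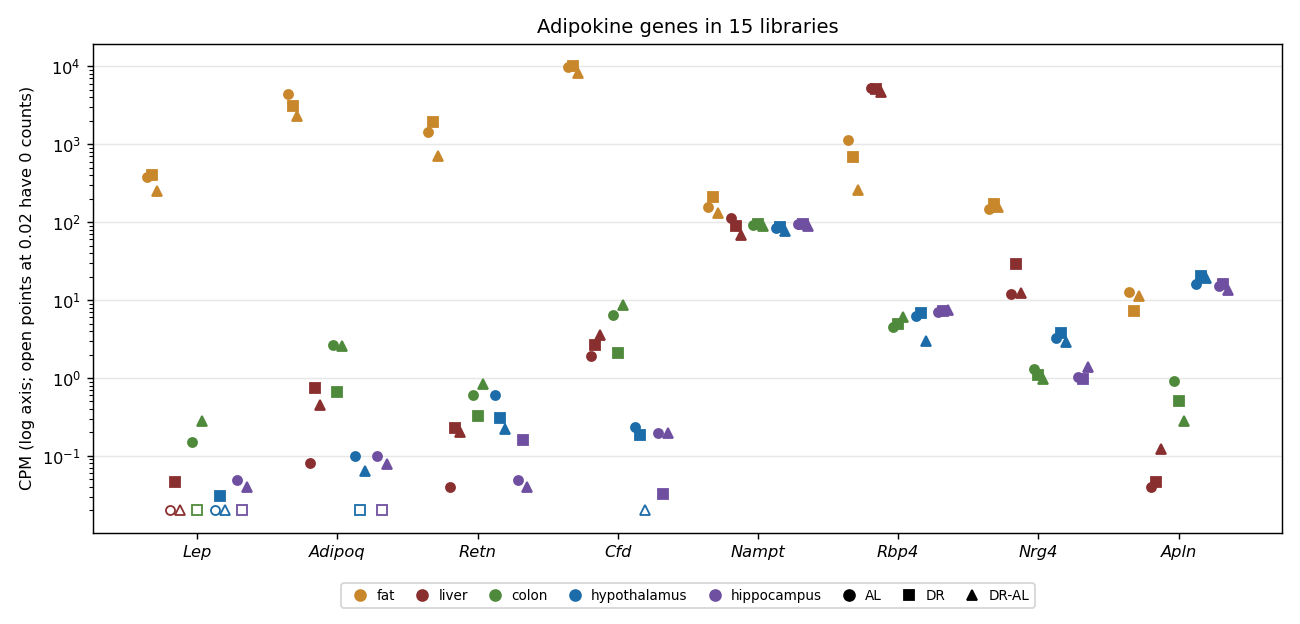
CPM of the 8 genes in 15 libraries on a log axis, coloured by tissue, with circles for AL, squares for DR and triangles for DR-AL, and open points at the foot for 0 counts. Lep, Adipoq, Retn and Cfd lie far above the other tissues in fat, Rbp4 is highest in liver, and Apln is highest in hypothalamus.

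The tissues were compared with the quasi-likelihood test of edgeR over the 15 libraries with tissue and diet as terms, where the 3 diets of a tissue stand as its samples. Fat was higher than liver for 6 of 8 genes (41.6% of all loci were higher), than colon for 8 (40.4%), than hypothalamus for 7 (37.4%) and than hippocampus for 7 (40.1%). All 8 passed the filter on low counts, but Lep, with at most 7 counts in a library outside fat, passed through its level in fat, so these counts of members are a description. Rbp4 was lower in fat than in liver, with a log2 ratio of -4.10 (edgeR, Benjamini-Hochberg adjusted p = 3.57e-05). For Nampt the direction against liver depended on the scale, since mean CPM was 1.80-fold higher in fat but the edgeR log2 ratio with TMM scaling was -0.30 (adjusted p = 0.0985). Nampt in fat against colon (0.38, edgeR adjusted p = 0.0422) was under the threshold in 2 of the 15 fits that each left out 1 library, with the highest adjusted p, 0.229, without AL fat. Apln in fat did not pass against hypothalamus (-0.81, edgeR adjusted p = 0.0523) or hippocampus (-0.72, adjusted p = 0.0761), and these were under the threshold in 7 and 5 of the 15 fits.

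In liver, Nrg4 was called higher in DR, which it was not in fat; the difference between the tissues was not tested. Its liver counts were 299, 634 and 298 in the order AL, DR and DR-AL. The DR library stood alone, at 2.27-fold of AL (1.97 to 2.61), and the AL and DR-AL libraries gave nearly equal counts. Erbb3 in liver moved the other way, with 3648, 1964 and 3128 counts (log2 ratios -0.80 and -0.19), and Erbb4 had 62, 84 and 22. Liver Nampt had 2761, 1964 and 1697 counts and was lower in both diets, at 76.0% of AL (71.7 to 80.6%) and 63.0% (59.2 to 66.9%). Liver Rbp4 was not called in either diet. Lepr in liver had 204, 173 and 1282 counts, a log2 ratio of 2.68 in DR-AL. In all, 3 of the 8 genes were called in DR liver, where 27.7% of loci were, and 3 in DR-AL liver, where 30.8% were; the remaining calls were Adipoq (2, 16 and 11 counts) and, in DR-AL, Cfd (47, 58 and 88).

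In colon, 3 genes were called lower in DR, where 19.7% of loci were called in either direction, and 3 were called in DR-AL, where 14.3% were. Adipoq had 71, 22 and 64 counts in AL, DR and DR-AL colon, Cfd 171, 70 and 217, Retn 16, 11 and 21, and Lep 4, 0 and 7. The DR colon was lowest for all 4. The fat cell genes Plin1 (28, 4 and 38 counts) and Fabp4 (283, 122 and 280) had the same order, with both lower in DR by the call, and 10 of 12 adipocyte genes were lower in DR colon. Their part in the levels of the 4 genes was not tested. Rbp4 was higher in DR-AL colon (121 and 154 counts, 1.37-fold, 1.07 to 1.75), and Apln was lower (24 and 7 counts).

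In hypothalamus no gene was called in DR (7.00% of loci were called), and 2 were called lower in DR-AL (14.9%). Rbp4 had 185, 222 and 93 counts there, and the DR-AL library was at 48.8% of AL (37.6 to 63.0%). Cfd had 7, 6 and 0. Apln, with 482, 659 and 608 counts, was not called. Lepr in hypothalamus, where leptin acts, had 533, 512 and 277 counts, a log2 ratio of -0.99 in DR-AL. In hippocampus 1 gene was called in DR (4.00% of loci) and none in DR-AL (6.12%). The 1 call was Adipoq on 4, 0 and 2 counts, and its exact interval reached equality, as did that of Lep in DR colon.

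A diet effect shared by the 5 tissues was not found for any of the 8 genes. The edgeR fit called 2 of 17476 loci for DR (0.0114%) and 1 for DR-AL (0.00572%), and neither count included a member; DESeq2 called no member either. At an unadjusted p under 0.05, 657 loci passed for DR with 0 members, and 862 for DR-AL with 1 member, Nampt (log2 ratio -0.30, edgeR adjusted p = 0.852). Since 1 pool of mice gave all 5 tissues of a diet, these libraries share their animals.

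By the distance between log2(CPM + 1) profiles over the 15 libraries, each centred on its mean, the genes most like Retn and Adipoq were both Plin1 (distances 1.22 and 1.91), among 13533 loci with at least 100 counts on average in fat. Fabp4 was nearest to Cfd (1.86), Tusc5, an insulin-responsive gene of fat cells, to Lep (1.36), and Pde3b, the phosphodiesterase through which insulin restrains lipolysis, to Nrg4 (2.25). Orm1, an acute-phase protein of liver, was nearest to Rbp4 (1.75) and also fell in count across the fat libraries, with 5822, 3625 and 1147. The part of liver RNA in these Orm1 counts was not computed. Eif4g1, a translation factor, was nearest to Nampt (0.69), and Iqsec1 to Apln (1.09). These distances rest mainly on differences between tissues.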

How the data were processed

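RNA was isolated from each tissue, pooled over 5 mice, depleted of ribosomal RNA and made into stranded libraries sequenced from both ends. Per the paper's methods, the authors trimmed reads by quality, aligned them with Strand software and removed duplicate reads, which can lower the level of very abundant transcripts. The methods name mm10 and the submitters' processing notes mm9 and DESeq2. Positions in the table overlap GENCODE M21 (GRCm38) for 2 of the 8 genes, so the coordinates printed are those of GENCODE M21. The RNA kit is named differently in the labels and the methods.

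The authors deposited raw counts per locus, whole numbers without normalization, and FPKM values whose scaling between libraries is not given in the sources used here. All 30 value columns were used. Counts of each tissue were divided by DESeq size factors, computed in Python 3.11.15 with numpy 2.4.6. The Z test took named loci whose counts in a tissue summed to at least 1. A self-test of the Z test, on counts simulated with counting error only, preceded the analysis, and one of edgeR followed its fits. Log2 ratios used a pseudocount of 0.5. Intervals are exact Clopper-Pearson 95% intervals of count ratios, and exact Poisson intervals of counts, for counting error only, and a count of 0 allows up to 3. The methods' Z test divides by library totals, which is given as an alternative. Tissues and shared diet effects were tested with edgeR 4.0.16 (quasi-likelihood, TMM, filterByExpr) and, as an alternative, DESeq2 1.42.0, in R 4.3.3, with Benjamini-Hochberg adjustment over all loci tested.

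The members, the gene lists and the tests were chosen with earlier results of these data known. Named genes are the 8 members, members of the lists with the highest and lowest changes or the highest abundance in fat, and for each member the nearest of the 3 nearest loci. Genes named for their role (receptors and partners, Nmnat3, Vegfa, Igf1, Plin1) were picked from the lists after their values were seen. Counts expected from liver RNA are the count in liver times the median fat-to-liver count ratio of the hepatocyte genes, by diet. The DESeq size factors were not computed again after their removal, and the effect of this on values near the fold was not tested. The alternatives were other scalings, a mean of at least 10 counts, a fold of 2, an edgeR exact test with a coefficient of variation of 0.1, FPKM with pseudocounts of 0.1 and 1, removal of liver counts, no filter, no covariate, and leaving out libraries or tissues. Removal of liver counts at the quartiles, with scaling by adipocyte genes, or for list genes (by the fold alone, with no test) was added after the data were seen.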

Additional observations from a re-analysis of the deposited data

Results flagged for a closer look

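For 4 of the 8 genes, the same comparison of diets was called in opposite directions in different tissues, with counts in both libraries and an exact interval that left out equality. The share of all loci with such opposite calls was not computed. Against AL, 42.8% and 58.1% of loci were called in DR and DR-AL fat. The shares were 27.7% and 30.8% in liver, 19.7% and 14.3% in colon, and 7.00% and 14.9% in hypothalamus. There was 1 library per tissue and diet, so the difference between tissues was not tested.

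For DR against AL, the log2 ratio of Adipoq was 2.81 in liver (on 2 and 16 counts), -0.68 in fat and -1.99 in colon. For DR-AL against AL, Adipoq was at 2.23 in liver and -1.27 in fat. Cfd was at 0.93 in liver, 0.45 in colon and -0.58 in fat, where scaling by adipocyte genes turned it to 0.42. Rbp4 was at 0.45 in colon, -2.48 in fat and -1.03 in hypothalamus. With counts expected from liver RNA removed, the fat ratio of Rbp4 was -1.06, and at the upper quartile of the liver ratio it was not called.

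For DR-AL against DR, the genes called higher in colon and lower in fat were Adipoq (1.95 and -0.59), Retn (1.32 and -1.59) and Cfd (2.06 and -0.43). Scaled by adipocyte genes, the fat ratios of Adipoq (0.22) and Cfd (0.38) turned positive, and that of Retn (-0.78) did not. The colon values rest on counts of 22 and 64 for Adipoq, 11 and 21 for Retn, and 70 and 217 for Cfd, and Plin1 and Fabp4 were higher in the same colon library. The part of fat cell RNA in the colon and liver libraries was not tested.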

How the results depend on the processing

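No paired analysis was possible because each tissue and diet had 1 library and the labels give no replicate numbers. Of 145 recomputed counts of members, 133 stayed within 1.5 times and 12 did not. Members called in DR fat were 5 with library totals, 5 with adipocyte genes, 1 with a fold of 2, 6 with FPKM at either pseudocount, and 5 with liver counts removed and adipocyte scaling, against 3. Those called in DR-AL fat were 4 with totals and 3 with a fold of 2, against 7. With adipocyte genes 6 were called in DR-AL fat, 2 lower and 4 higher, and for DR-AL against DR 2 were lower and 3 higher. A fold of 2 left 2 of 7 for DR-AL against DR, 1 in DR-AL liver and 1 in DR-AL colon, and a mean of at least 10 counts left 0 in DR hippocampus.

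Of 222 recomputed log2 ratios in fat, 161 kept direction and side of the threshold, 22 lost and 13 gained a call, and 26 reversed. With totals, Lep (0.0872) and Cfd (0.0368) reversed in DR and Nrg4 (0.0862) in DR-AL. With adipocyte genes, Lep (0.0892) and Cfd (0.0388) reversed in DR. In DR-AL the same scaling reversed Lep (0.0743), Cfd (0.42), Nampt (0.43), Nrg4 (0.75) and Apln (0.47), and against DR it reversed Adipoq (0.22), Cfd (0.38), Nampt (0.0114) and Nrg4 (0.50). FPKM with pseudocounts of 0.1 and 1 reversed Retn (-0.32 and -0.32), Nampt (-0.17 and -0.16) and Nrg4 (-0.42 and -0.40) in DR, and Apln in DR-AL against DR (-0.23 and -0.12). Removal of liver counts reversed Rbp4 in DR (0.50, 0.26 and 1.26 at the median and quartiles, and 0.69 with adipocyte scaling). For 17 list genes named in the text, removal of liver counts reversed C3 in DR (0.0979) and Erbb3 in DR-AL (0.708). It also took Erbb3 in DR (-0.21) and Adipor1 in DR-AL (-0.22) below the fold. By construction the scalings shift all loci alike; the cause of other changes was not tested. Apln lost its calls in DR-AL under an edgeR exact test with a coefficient of variation of 0.1, as did Cfd against DR. Leaving out any library or tissue kept the counts of the edgeR tests within 1.5 times. Depth limits Lep, Adipoq, Retn and Cfd outside fat, where counts are few.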
